A study of Homo sapiens with 12 samples.

Results

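The 10 genes described here mark a mesenchymal cell state or the output of the co-activators YAP and TAZ. They are VIM, CD44, PRRX1, SNAI2, TWIST1, NOTCH2, YAP1, WWTR1 (which encodes TAZ), CCN1 and CCN2, taken by gene symbol from a table of 43769 genes. RNA was sequenced from SK-N-DZ, an established human neuroblastoma cell line with amplified MYCN. All groups carried a doxycycline-inducible short hairpin RNA against ARID1A, a subunit of the SWI/SNF chromatin remodeling complex. Control cells (C) carried the hairpin but received neither agent, D cells received doxycycline for 4 days, I cells received IFNγ for 24 h, and DI cells received both. Each of these 4 groups had 3 libraries, numbered 1 to 3. The 4 days are the duration in the labels. For these cells the study's own text gives the same duration in a supplementary caption and a shorter one in its main captions. The study describes its inducible lines as clones, and the labels do not say which clone a library came from. No library had doxycycline without the hairpin, so an effect of the drug, of hairpin induction and of ARID1A loss cannot be told apart.

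Neuroblastoma cells occur in an adrenergic state, held by transcription factors such as HAND2 and GATA3, and in a mesenchymal state with more intermediate filament, matrix and motility genes. PRRX1, SNAI2 and TWIST1 are transcription factors of mesenchymal cells, VIM encodes the filament protein vimentin, CD44 is the receptor for hyaluronan, and NOTCH2 is a receptor whose pathway can drive the mesenchymal state. YAP and TAZ are held in the cytoplasm by the Hippo kinases. In the nucleus they bind TEAD factors and turn on genes such as CCN1 and CCN2, which encode secreted matrix proteins.

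The promoters of CCN2, YAP1 and VIM are printed because CCN2 is a textbook TEAD target that was barely detected here, YAP1 is the co-activator itself, and VIM differed most clearly between replicate numbers. RefSeq promoter entries (GRCh38.p14) were held for 7 of the 10 genes. The window is the 250 bases before the start, in the direction of transcription, and capitals mark the TEAD core motif CATTCC or its reverse complement GGAATG. The CCN2 run stops 1 base short of that window, where its GENCODE exon begins.
CCN2, chr6:131951374-131951622, minus strand: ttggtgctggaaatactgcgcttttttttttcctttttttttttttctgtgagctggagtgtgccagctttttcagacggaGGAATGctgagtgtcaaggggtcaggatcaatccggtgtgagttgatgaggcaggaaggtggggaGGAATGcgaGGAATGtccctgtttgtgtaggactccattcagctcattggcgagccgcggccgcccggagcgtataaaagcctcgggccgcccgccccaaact
YAP1, chr11:102110197-102110446, plus strand: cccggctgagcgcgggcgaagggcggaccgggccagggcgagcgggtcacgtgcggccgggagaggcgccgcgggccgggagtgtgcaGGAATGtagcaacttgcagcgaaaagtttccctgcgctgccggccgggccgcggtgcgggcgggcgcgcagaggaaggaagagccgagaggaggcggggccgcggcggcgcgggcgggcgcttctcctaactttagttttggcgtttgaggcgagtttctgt
VIM, chr10:17227991-17228240, plus strand: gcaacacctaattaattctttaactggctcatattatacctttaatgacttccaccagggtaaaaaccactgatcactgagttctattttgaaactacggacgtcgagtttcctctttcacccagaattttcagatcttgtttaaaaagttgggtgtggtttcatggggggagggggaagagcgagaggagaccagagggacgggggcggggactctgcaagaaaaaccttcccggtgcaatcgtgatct
CCN2 held 3 TEAD cores, which begin 169, 104 and 95 bases before the start, and YAP1 held 1, which begins 162 bases before it. VIM, CD44, PRRX1, NOTCH2 and both WWTR1 entries held 0. By GENCODE the CD44 and PRRX1 windows begin inside exons of the gene itself, and 1 WWTR1 window has 174 bases before such an exon. Part of these windows is thus annotated as transcribed. Of all 35116 promoter windows of this length, 11.9% held at least 1 TEAD core on either strand. The AP-1 motif TGANTCA and the interferon-activated motif TTCNNNGAA were each in 6.57% of all windows and in 0 of the windows of these 7 genes. A match describes the letters only.

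The libraries held 16469832 to 21790869 counts, at which 3 counts equal 0.138 to 0.182 counts-per-million (CPM) units before scaling. CPM values here divide counts by library size after TMM scaling, an adjustment for differences in RNA composition. ARID1A, the hairpin's target, lay between 158 and 197 CPM in D and between 165 and 197 CPM in C (log2 fold change −0.09, SE 0.11, adjusted p = 0.788 by edgeR), so a fall of the target was not detectable in that comparison. The groups are named by their labels, and D stands for doxycycline given. In DI vs I its log2 fold change was −0.44 (SE 0.11), with an adjusted p of 0.115 by edgeR, 0.00533 by DESeq2 and 0.0111 with a replicate block. Averaged over both IFNγ arms with that block it was −0.27 (SE 0.06, adjusted p = 0.00858). The 9 adrenergic marker genes summed to 3419 to 5020.5 CPM per library, with all 9 detected in every library. Of the 9 fibroblast markers 8 passed the filter on low counts, and FAP was at 0 in all 12 libraries. The 9 summed to 88.4 to 210.5 CPM, with the highest medians for THY1 (48.7 CPM) and PDGFRB (41.6 CPM). Of the 8 that passed, DCN (0.214 CPM), COL1A1 (0.961) and LUM (1.28) had the lowest medians. The Schwann cell markers summed to 4.53 to 12.3 CPM, with SOX10 at 0 in 9 libraries, and the blood cell markers to 0.198 to 1.25 CPM, with CD3E and HBB at 0 in all 12.

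Compared per length, as TPM (transcripts-per-million, mean of 12 libraries), TWIST1 had the highest level of the 10 genes, at 219 TPM (range 166 to 279). VIM followed at 79.9 TPM (30.5 to 166), below TWIST1 in 12 of 12 libraries and above every other member in 12 of 12. The order of VIM and TWIST1 rests on the length used, all annotated exons of a gene (5158 bases for VIM, 2033 for TWIST1). In CPM it was not fixed: VIM was above TWIST1 in I replicate 2 (209 against 133) and below it in C replicate 3 (45.2 against 131). YAP1 had 5.92, SNAI2 4.999 and NOTCH2 3.37 TPM. These 3 were not in 1 fixed order, since YAP1 exceeded SNAI2 in 9 libraries and SNAI2 exceeded NOTCH2 in 8. CCN1 had 1.15, WWTR1 0.749, CD44 0.463 and PRRX1 0.379 TPM, and neighbours in this order changed places between libraries: CCN1 exceeded WWTR1 in 8, WWTR1 exceeded CD44 in 8 and CD44 exceeded PRRX1 in 5. CCN2 was lowest, at 0.176 TPM. Against all tested genes, TWIST1 lay above 96.0% and VIM above 85.4%, whereas YAP1 lay above 29.3% and CD44 above 3.13%.

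**Figure D1:**
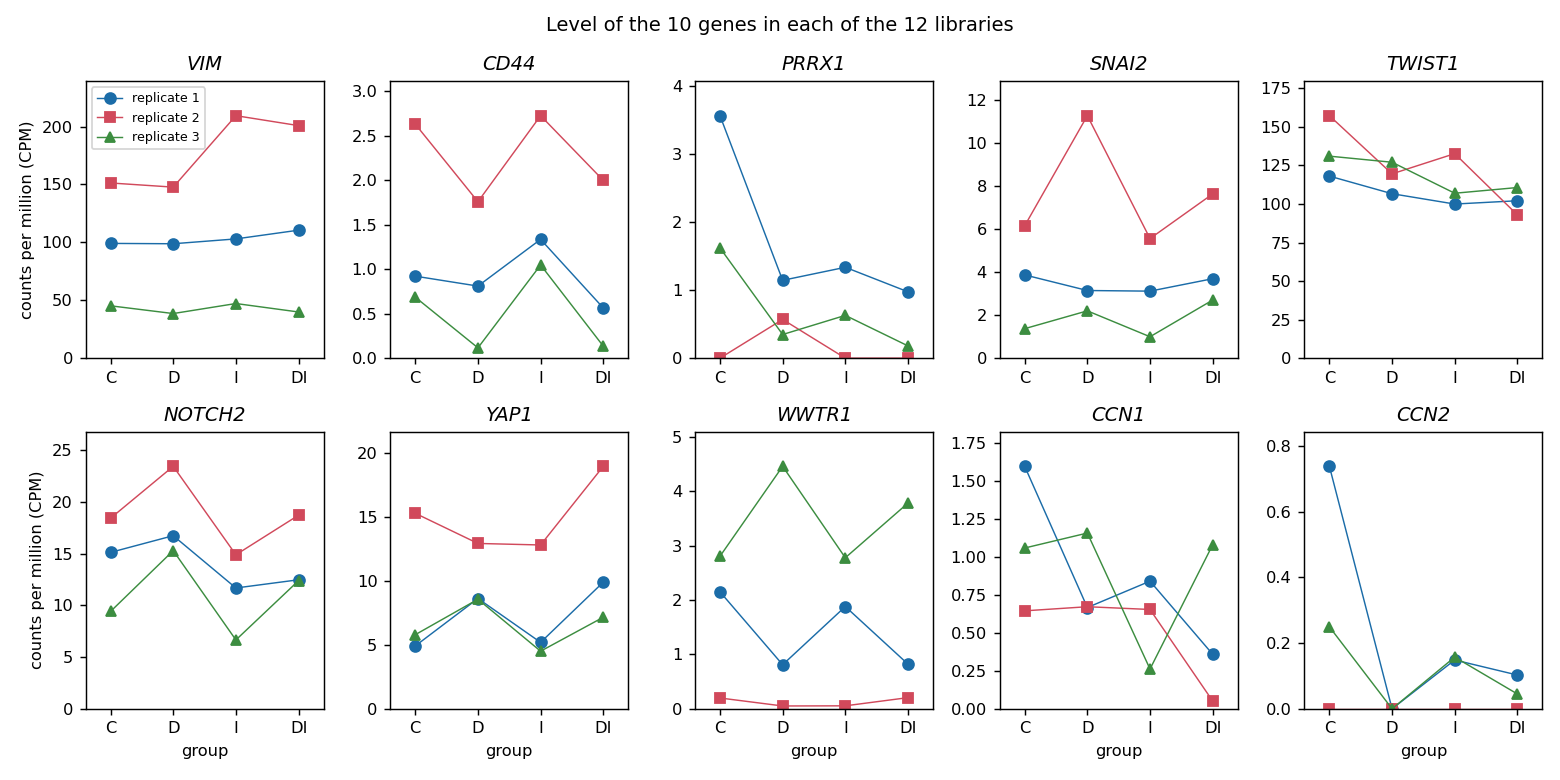
Level of each of the 10 genes in CPM (y axis, linear, from 0, own scale per gene) in groups C, D, I and DI (x axis). Each symbol is 1 library, and lines join libraries with the same replicate number. VIM, SNAI2 and WWTR1 keep their 3 replicate numbers apart in all 4 groups, and CCN2 is at 0 in 6 of 12 libraries.

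VIM (ENSG00000026025, chromosome 10, 17228259 to 17237593, plus strand of GRCh38) encodes the main intermediate filament of mesenchymal cells. In replicates 1, 2 and 3 it had 99.1, 151 and 45.2 CPM in C. The D libraries had 98.8, 148 and 38.5, the I libraries 103, 209 and 47.2 and the DI libraries 111, 201 and 39.9. Replicate 2 was highest and replicate 3 lowest in each group, and the 4 libraries of a number did not overlap those of another. The 4 groups overlapped throughout. In bulk RNA, fewer cells that express a gene and less RNA per cell cannot be told apart.

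SNAI2 (ENSG00000019549, chromosome 8, 48917604 to 48921740, minus strand), a repressor of epithelial genes, had 3.87, 6.16 and 1.37 CPM in C. The D libraries had 3.15, 11.3 and 2.20, the I libraries 3.12, 5.56 and 0.996 and the DI libraries 3.70, 7.64 and 2.70. It followed the order of VIM, with replicate 2 highest and replicate 3 lowest in each group. CD44 (ENSG00000026508, chromosome 11, 35138870 to 35232402, plus strand) had 0.922, 2.63 and 0.686 CPM in C. The D libraries had 0.810, 1.76 and 0.116, the I libraries 1.34, 2.73 and 1.05 and the DI libraries 0.565, 2.00 and 0.135. Its counts were few (2 to 53 per library), and the lowest libraries, D replicate 3 and DI replicate 3, held 2 and 3 counts. NOTCH2 (ENSG00000134250, chromosome 1, 119911553 to 120069626, minus strand) had 15.1, 18.4 and 9.41 CPM in C. The D libraries had 16.7, 23.4 and 15.3, the I libraries 11.7, 14.9 and 6.66 and the DI libraries 12.5, 18.7 and 12.4. Replicate 2 was again highest in each group, but the ranges of the numbers overlapped. NOTCH2NLA, a partial copy of NOTCH2, had 0 to 11 counts, and reads that both share cannot be told apart.

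TWIST1 (ENSG00000122691, chromosome 7, 19020991 to 19117672, minus strand), a basic helix-loop-helix factor, had 118, 157 and 131 CPM in C. The D libraries had 107, 119.5 and 127, the I libraries 99.9, 133 and 107 and the DI libraries 102, 92.9 and 111. All 12 libraries lay within 92.9 to 157 CPM, and no number was highest throughout. PRRX1 (ENSG00000116132, chromosome 1, 170662728 to 170739419, plus strand), a homeobox factor of the mesenchymal core circuit, had 3.57, 0 and 1.62 CPM in C. The D libraries had 1.14, 0.569 and 0.347, the I libraries 1.34, 0 and 0.629 and the DI libraries 0.9752, 0 and 0.180. Replicate 2 of C, I and DI had no count, and D replicate 2 was the exception. The highest library, C replicate 1, held 58 counts.

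YAP1 (ENSG00000137693, chromosome 11, 102110461 to 102233423, plus strand) had 4.92, 15.3 and 5.80 CPM in C. The D libraries had 8.63, 12.9 and 8.57, the I libraries 5.20, 12.8 and 4.51 and the DI libraries 9.91, 19.0 and 7.16. Every replicate 2 library exceeded every library of numbers 1 and 3. WWTR1 (ENSG00000018408, chromosome 3, 149517235 to 149736714, minus strand) had 2.15, 0.199 and 2.80 CPM in C. The D libraries had 0.810, 0.0517 and 4.46, the I libraries 1.88, 0.0545 and 2.78 and the DI libraries 0.821, 0.205 and 3.78. Here replicate 3 was highest and replicate 2 lowest in each group, with 1 to 4 counts in the replicate 2 libraries. Of these paralogous co-activators, YAP1 was thus highest and WWTR1 lowest in number 2. WWTR1-AS1, on the other strand, had 0 to 13 counts per library and VIM-AS1 had 1 to 16. Whether counting used strand is not stated, so reads of a gene and its antisense partner cannot be told apart.

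CCN1 (ENSG00000142871, chromosome 1, 85580761 to 85583962, plus strand) had 1.60, 0.646 and 1.06 CPM in C. The D libraries had 0.667, 0.673 and 1.16, the I libraries 0.841, 0.654 and 0.262 and the DI libraries 0.359, 0.0513 and 1.08. It stayed at 1 to 26 counts per library with no fixed order of the numbers. CCN2 (ENSG00000118523, chromosome 6, 131948176 to 131951373, minus strand) had 12, 0 and 4 counts in C and none in D. The I libraries had 3, 0 and 3 counts and the DI libraries 2, 0 and 1. It was not detected in D at this depth, where 3 counts equal 0.148 to 0.181 CPM before scaling, nor in any replicate 2 library. CCN2 did not pass the filter, so 9 of the 10 genes were tested. Of these classical YAP/TAZ targets, CCN2 was thus near the limit of detection, and CCN1 was low but had a count in every library.

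The libraries with the same number varied together, so the replicate number was fitted beside the group, a test chosen after the values were seen. By edgeR's quasi-likelihood test 7 of the 9 tested genes differed between numbers, against 44% of all tested genes. The adjusted p was 1.64e-06 for VIM, 0.000248 for WWTR1, 0.000335 for SNAI2, 0.000504 for YAP1, 0.00238 for NOTCH2, 0.00286 for CD44 and 0.0266 for PRRX1. TWIST1 (0.175) and CCN1 (0.423) did not pass. The first 6 of these passed in all 12 fits that left out 1 library. PRRX1 lost its call in 4 of these fits (without C replicate 1, I replicate 1, I replicate 2 or DI replicate 1, highest adjusted p 0.0755), and TWIST1 gained one in 1 (0.0217, without DI replicate 2). The labels do not say what the numbers stand for.

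From number 1 to number 2, 5 genes were higher and 2 lower, where 19.6% of all genes were called. VIM was higher by 0.77 (SE 0.09, adjusted p = 0.000858), YAP1 by 1.11 (SE 0.18, 0.00318), SNAI2 by 1.09 (SE 0.24, 0.0118), CD44 by 1.37 (SE 0.40, 0.0351) and NOTCH2 by 0.42 (SE 0.13, 0.0492), all on the log2 scale by edgeR. WWTR1 fell by 3.36 (SE 0.55, adjusted p = 0.00359) and PRRX1 fell by 3.59 (SE 0.95, 0.0258). Both of these changes rest on few counts in number 2, and their 95% confidence intervals were −4.59 to −2.14 and −5.70 to −1.48. VIM, YAP1 and WWTR1 kept these calls without any 1 library, and SNAI2 lost it only without DI replicate 1 (1.01, adjusted p = 0.0545). The other 3 were less stable: CD44 lost its call in 6 of 12 such fits (adjusted p up to 0.121), PRRX1 in 5 (up to 0.0808) and NOTCH2 in 9 (up to 0.179). TWIST1 gained a call without DI replicate 2 (0.33, adjusted p = 0.0263). The count of called members fell to 4 without I replicate 1 and to 3 without DI replicate 1.

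Between numbers 1 and 3, 1 gene was higher and 2 lower in number 3, against 24.3% of all genes called. VIM fell by 1.27 (SE 0.10, adjusted p = 1.71e-05) and SNAI2 by 0.99 (SE 0.26, adjusted p = 0.0177), and WWTR1 rose by 1.36 (SE 0.41, 0.0343). SNAI2 lost its call without C replicate 1, C replicate 3, I replicate 1 or I replicate 3 (adjusted p up to 0.0640), and WWTR1 lost it without replicate 1 or 3 of D or DI (up to 0.143). Calls were gained by PRRX1 without D replicate 2 (adjusted p = 0.0257) and by NOTCH2 without DI replicate 3 (0.0382). Between numbers 2 and 3, 1 gene was higher and 5 lower in number 3, against 39.7% of all genes. WWTR1 was higher by 4.72 (SE 0.53, adjusted p = 8.95e-05). VIM fell by 2.04 (SE 0.10, adjusted p = 4.82e-07), SNAI2 by 2.08 (SE 0.25, adjusted p = 0.000135), CD44 by 2.41 (SE 0.43, adjusted p = 0.00136), YAP1 by 1.23 (SE 0.18, adjusted p = 0.000403) and NOTCH2 by 0.82 (SE 0.14, adjusted p = 0.000894). These 6 calls held in all 12 fits without 1 library, and PRRX1 gained one without D replicate 2 (adjusted p = 0.00132). For 3 members (VIM, SNAI2 and WWTR1) no 2 of the 3 numbers overlapped in CPM, a pattern found in 2.69% of all tested genes.

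**Figure D2:**
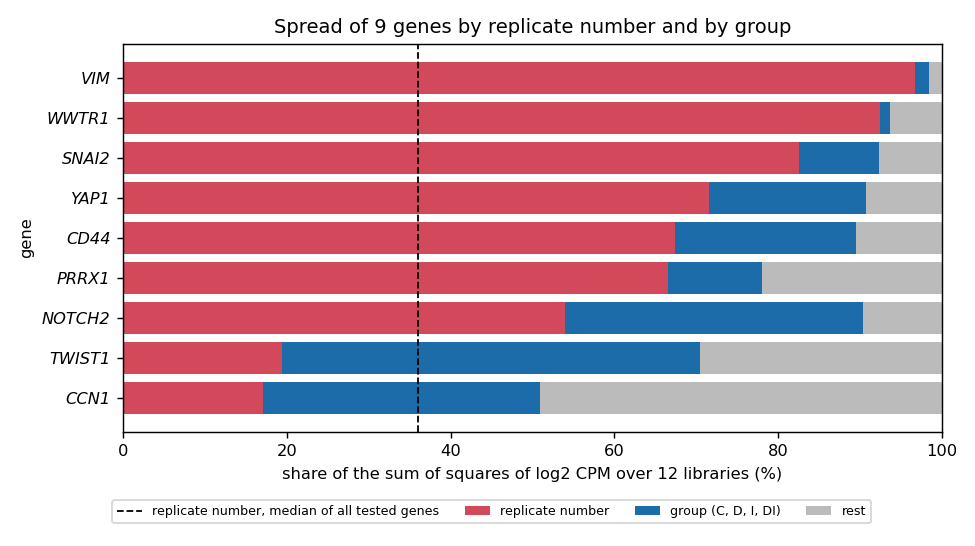
Share of the sum of squares of log2 CPM over the 12 libraries (x axis, %) that goes with the replicate number, with the group and with neither, for the 9 tested genes (y axis). The number holds 96.7% for VIM and 17.1% for CCN1, and the dashed line marks 35.9%, its median over all tested genes.

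Split into its parts, the spread of VIM in log2 CPM over the 12 libraries went to 96.7% with the replicate number and to 1.68% with the group. The number held 92.5% for WWTR1, 82.5% for SNAI2, 71.6% for YAP1, 67.4% for CD44, 66.5% for PRRX1 and 53.9% for NOTCH2. It held 19.4% for TWIST1 and 17.1% for CCN1. Over all tested genes the median was 35.9% for the number and 31.1% for the group. The group held 51.0% for TWIST1, 36.4% for NOTCH2, 33.8% for CCN1, 22.2% for CD44, 19.2% for YAP1, 11.5% for PRRX1, 9.86% for SNAI2 and 1.27% for WWTR1.

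The treatment comparisons asked whether hairpin induction or IFNγ moved the mesenchymal and YAP genes. No member was called in any of them. By edgeR 0 of 9 passed in D vs C (1.23% of all genes called), DI vs I (0.67%), I vs C (2.21%), DI vs D (1.72%) and the interaction, which sets DI vs D against I vs C (0% called, with 99 genes at an unadjusted p under 0.05). In each of these 5 tests 0 members had an unadjusted p under 0.05, and DESeq2 also called 0. Of the 15828 tested genes 2248, 1934, 1267 and 987 had an unadjusted p under 0.05 in the first 4 tests, in that order. For the doxycycline question, the log2 fold change of VIM was −0.05 without IFNγ (D vs C, 95% confidence interval −1.59 to 1.48) and −0.03 with it (DI vs I, −1.57 to 1.499). In the same order YAP1 had 0.21 (−0.97 to 1.38) and 0.68 (−0.50 to 1.86), and CD44 had −0.66 (−2.80 to 1.48) and −0.92 (−3.06 to 1.21). NOTCH2 had 0.37 (−0.35 to 1.09) and 0.39 (−0.33 to 1.116), SNAI2 0.54 (−1.16 to 2.24) and 0.54 (−1.17 to 2.24), and WWTR1 0.05 (−3.11 to 3.20) and 0.03 (−3.11 to 3.18). PRRX1 had −1.31 (−4.56 to 1.95) and −0.77 (−4.17 to 2.62), and CCN1 −0.40 (−2.09 to 1.29) and −0.22 (−1.96 to 1.52). The intervals were narrowest for TWIST1, at −0.20 (−0.51 to 0.10) and −0.15 (−0.46 to 0.16). For the IFNγ question, the changes in I vs C lay between −1.37 (PRRX1) and 0.28 (VIM, −1.25 to 1.82), with TWIST1 at −0.26 (−0.57 to 0.05), YAP1 at −0.21 (−1.39 to 0.96) and CCN1 at −0.90 (−2.61 to 0.82). In DI vs D they lay between −0.84 (PRRX1) and 0.30 (VIM). The groups overlapped in CPM for each of the 9 genes in these comparisons, and the wide intervals do not show that a gene was unaffected. D vs C and I vs C share the C libraries. The median over the 9 genes was −0.05 in the first and −0.24 in the second, against −0.0012 and −0.0081 over all tested genes.

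**Figure D3:**
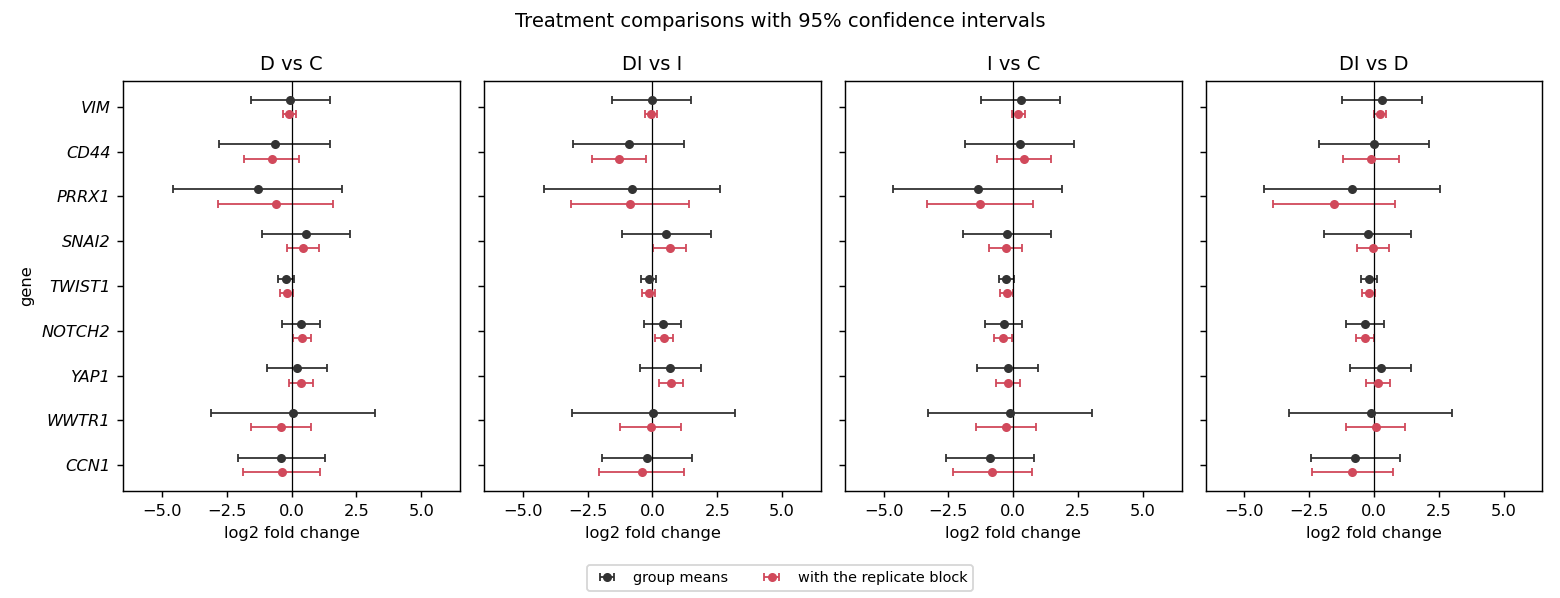
Log2 fold change (x axis) of the 9 tested genes (y axis) in D vs C, DI vs I, I vs C and DI vs D, with 95% confidence intervals. Dark points come from the model of group means and red points from the model with the replicate block, whose intervals are narrower, as for VIM in D vs C (−0.33 to 0.15 against −1.59 to 1.48).

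With the replicate number fitted as a block, which compares libraries within a number, far more genes of the whole table were called: 13.9% in D vs C, 10.5% in DI vs I, 6.02% in I vs C, 4.46% in DI vs D and 0% in the interaction. Of the members 0 of 9 were called in each. At an unadjusted p under 0.05 there was 1 member in D vs C (NOTCH2), 4 in DI vs I (CD44, NOTCH2, SNAI2 and YAP1), 2 in I vs C (NOTCH2 and TWIST1), 1 in DI vs D (NOTCH2) and 0 in the interaction, where 374 of all genes had one. Of the 15828 tested genes 4721, 4266, 2862 and 2283 passed the same limit in the first 4 comparisons, in that order. The nearest to the threshold was YAP1 in DI vs I, at a log2 fold change of 0.72 (SE 0.21, adjusted p = 0.0511 by edgeR). The block narrowed the interval of VIM in D vs C to −0.33 to 0.15 around −0.09, and in I vs C to −0.04 to 0.44 around 0.20.

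Averaging the doxycycline effect over both IFNγ arms with the block, a test chosen after the values were seen, gave 3 of 9 members called, beside 29% of all genes. NOTCH2 was higher with doxycycline by 0.41 on the log2 scale (SE 0.11, adjusted p = 0.0184 by edgeR), in 6 of 6 pairs of libraries with the same number. YAP1 was higher by 0.54 (SE 0.15, adjusted p = 0.0193), in 5 of 6 pairs. CD44 was lower, at −1.03 (SE 0.34, adjusted p = 0.0438), in 6 of 6 pairs, on 2 to 53 counts per library. SNAI2 had 0.55 (SE 0.20, adjusted p = 0.0626), with 5 of 6 pairs higher. VIM had −0.08 (95% confidence interval −0.25 to 0.09), WWTR1 −0.24 (−1.08 to 0.59), CCN1 −0.40 (−1.51 to 0.72), PRRX1 −0.74 (−2.33 to 0.85) and TWIST1 −0.17 (−0.34 to 0.0047). A single direction in all 6 pairs was found in 28.0% of all tested genes.

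These calls changed with the scaling and with single libraries. Without the block 0 members were called, and with library size alone in place of TMM the CD44 call was lost (adjusted p = 0.0565) and SNAI2 gained one (0.0346). NOTCH2 lost its call without C replicate 3 (0.36, adjusted p = 0.0604) or DI replicate 3 (0.35, adjusted p = 0.0518). YAP1 lost it without D replicate 1 (0.50, adjusted p = 0.0528), D replicate 3 (0.45, 0.0550), I replicate 1 (0.52, 0.0522), I replicate 3 (0.50, 0.0522) or DI replicate 1 (0.48, 0.0515). CD44 kept its call in 2 of 12 such fits, without I replicate 2 or DI replicate 2, and reached an adjusted p of 0.104 without DI replicate 3. Calls were gained by SNAI2 without C replicate 1 (0.65, adjusted p = 0.0492) or D replicate 1 (0.69, 0.0329) and by PRRX1 without D replicate 2 (−1.40, 0.0298).

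**Figure D4:**
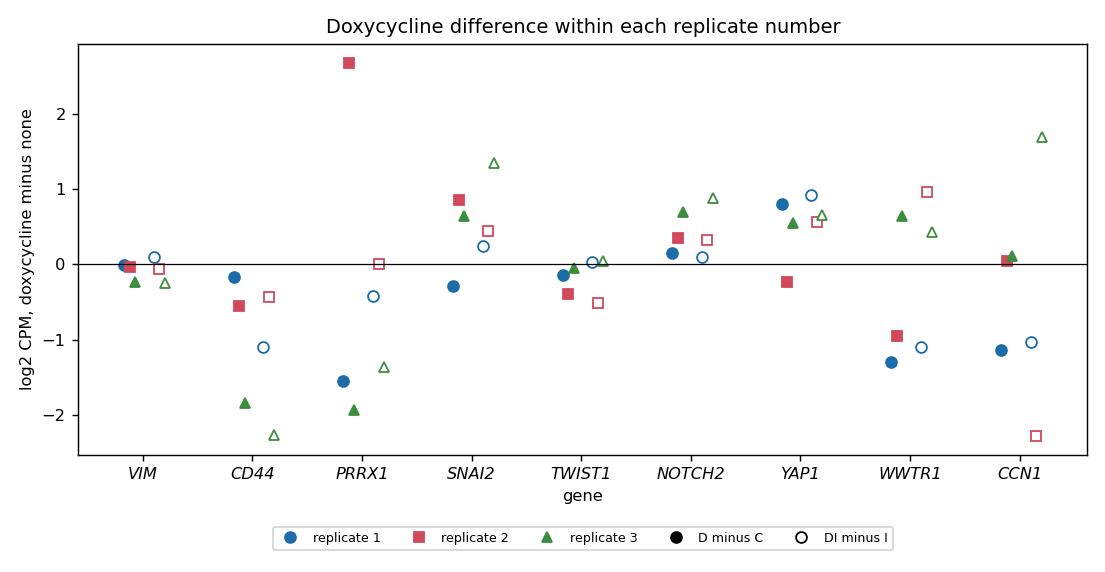
Difference in log2 CPM (y axis) between the library with doxycycline and the library without it of the same replicate number, for the 9 tested genes (x axis). Filled symbols are D minus C and open symbols DI minus I. All 6 symbols lie above 0 for NOTCH2 and below 0 for CD44, and YAP1 has 5 of 6 above.

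The IFNγ effect averaged over both doxycycline arms in the same way called 0 of 9 members, against 10.9% of all genes. By edgeR TWIST1 had −0.23 (SE 0.08, adjusted p = 0.0934) and NOTCH2 −0.36 (SE 0.11, adjusted p = 0.0609), each lower with IFNγ in 6 of 6 pairs. VIM had 0.21 (SE 0.08, adjusted p = 0.117), higher in 6 of 6 pairs. One direction in all 6 pairs was found in 23.6% of all genes. With library size alone both NOTCH2 (−0.40, adjusted p = 0.0380) and TWIST1 (−0.27, adjusted p = 0.0463) were called, and NOTCH2 was called without DI replicate 3 (−0.44, adjusted p = 0.0405). The difference of the doxycycline effect between the IFNγ arms is the interaction, with 0 members called.

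The partners through which YAP and TAZ reach DNA were well expressed. TEAD1 had 226 to 477 CPM over the 12 libraries, TEAD4 23.4 to 52.5, TEAD2 15.4 to 38.2 and TEAD3 14.7 to 25.4. The Hippo kinase LATS1, which phosphorylates YAP, had 44.7 to 74.8 CPM, and its paralog LATS2, itself a YAP target, was at 0 in 8 libraries. Of 24 tested Hippo genes 10 differed between replicate numbers, a share near the 44% of all tested genes. In number 3 against number 1, 2 Hippo genes were higher and 5 lower (24.3% of all genes). FAT1, a cadherin upstream of the kinases, was 1.74 lower on the log2 scale in number 3 than in number 1 (adjusted p = 9.16e-05 by edgeR), and TEAD2 was 0.81 lower (adjusted p = 0.00174). AMOTL2 was 0.68 higher (adjusted p = 0.000281). In the treatment comparisons MOB1A, a co-activator of the LATS kinases, fell in D vs C from 96.6 ± 8.57 to 49.5 ± 7.25 CPM (SD, n = 3; log2 fold change −0.96, adjusted p = 0.00453 by edgeR). MOB1A also fell in DI vs I (−0.88, adjusted p = 0.00652), and the kinase STK3 rose in DI vs D (0.90, adjusted p = 0.0456). These were the only calls among the 24 in D vs C, DI vs I and DI vs D, beside 1.23%, 0.67% and 1.72% of all genes. In the averaged doxycycline test 9 Hippo genes were higher and 2 lower (29% of all genes were called there), with TEAD1 at 0.40 (adjusted p = 0.00094) and MOB1A at −0.92 (1.40e-05). The median over the 24 genes was 0.14 there, and −0.011 over all tested genes.

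Of 22 YAP/TAZ target genes, CCN1 and CCN2 among them, 17 were tested. By edgeR 0 were called in D vs C, DI vs I, I vs C, DI vs D or the interaction. These tests called 0 to 2.21% of all genes, and 17 genes are too few to read the count against those shares. Their median log2 fold changes with doxycycline were −0.06 without IFNγ and 0.12 with it. Over replicate numbers 11 of 17 differed, against 44% of all genes. From number 2 to number 3, where 39.7% of all genes were called, 5 were higher and 4 lower, with NUAK2, a kinase, higher by 1.72 (adjusted p = 2.27e-05) and CCDC80, a secreted matrix protein, lower, at −1.27 (2.44e-05). In the averaged doxycycline test 2 were higher and 2 lower, a smaller share than the 29% of all genes. IGFBP3, which binds insulin-like growth factors, was higher by 1.54 (adjusted p = 0.00116, with 0.922 to 4.17 CPM in C and 6.37 to 7.97 in D), and NT5E, an ecto-nucleotidase, was lower, at −1.61 (adjusted p = 0.00622). The called targets were thus split in direction, while YAP1 was higher in that test.

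Among 29 genes of the mesenchymal cytoskeleton, adhesion and matrix, VIM and CD44 included, 24 were tested and 18 differed between replicate numbers (44% of all genes). From number 2 to number 3 (39.7% of all genes), 13 were lower and 3 higher, with a median of −0.81 against −0.015 over all tested genes. LGALS1, which encodes a galectin, was lower (−1.84, adjusted p = 0.000297), as were CDH11, a mesenchymal cadherin (−1.63, 0.000205), and CDH2, which encodes N-cadherin (−0.86, 2.74e-05). TPM2, a tropomyosin, was higher (0.61, adjusted p = 0.000274). Of 8 tested fibroblast markers 1 was higher and 4 were lower there, with PDGFRA falling from 33.0 to 43.4 CPM in number 2 to 8.91 to 9.79 in number 3. Summed fibroblast markers were 138 to 210.5 CPM in number 2, 107 to 143 in number 1 and 88.4 to 150 in number 3. The sum of 9 adrenergic markers was 3491 to 4318 CPM in number 1, 3419 to 4267 in number 2 and 4434 to 5020.5 in number 3. In the longer list of 18 adrenergic genes 6 were higher and 4 lower in number 3 than in number 2 (39.7% of all genes). The part of these marker levels in the VIM difference was not tested. Of 3 tested Schwann cell markers 1 differed between numbers, and of the blood cell markers 0 of 1 did. In I vs C FN1, which encodes fibronectin, rose from 496 ± 121 to 2700.5 ± 810.5 CPM (SD, n = 3; log2 fold change 2.45, adjusted p = 0.00189 by edgeR). It was the only called gene of the 24 there, beside 2.21% of all genes. In the averaged doxycycline test 4 of the 24 were higher and 5 lower (29% of all genes). LGALS1 (−1.52, adjusted p = 0.00057) and ANXA2, an annexin (−1.23, adjusted p = 0.000451), were lower, and THBS1, which encodes thrombospondin 1, was higher (1.21, adjusted p = 0.0166).

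Of 6 tested factors of epithelial-mesenchymal transition, SNAI2 and TWIST1 among them, 4 differed between numbers, against 44% of all genes. In the 5 comparisons of group means and both averaged effects 0 of the 6 were called by edgeR, in tests that called 0 to 29% of all genes, and 6 genes are too few to read this count against those shares. ZEB2 was lower in number 3 than in number 2 (−0.89, adjusted p = 0.000118 by edgeR), and so was ZEB1 (−0.30, adjusted p = 0.00145). Of 18 tested mesenchymal neuroblastoma factors, PRRX1 and WWTR1 among them, 12 differed between numbers, against the same 44%. Their directions were split, with 5 higher and 6 lower in number 3 than in number 2 (39.7% of all genes). With IFNγ, RUNX1 rose in I vs C from no count in any C library to 17 to 59 counts in I (adjusted p = 0.00657). In DI vs D both RUNX1 and MAFF, a small MAF protein, rose (MAFF from 3.75 ± 2.28 to 19.7 ± 7.83 CPM, SD, n = 3; adjusted p = 0.0230). No other of these 18 factors was called in I vs C or DI vs D, beside 2.21% and 1.72% of all genes. Of 18 adrenergic genes, STMN2, a neuronal microtubule regulator, fell in D vs C (−1.37, adjusted p = 0.00453) and also in DI vs I (−1.21, adjusted p = 0.00865). No other adrenergic gene was called in either, beside 1.23% and 0.67% of all genes. In the averaged doxycycline test 8 adrenergic genes were lower and 3 higher, with a median of −0.15 over the 18, against −0.011 and 29% called over all tested genes.

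NOTCH3, a paralog of NOTCH2, had 74.6 to 185 CPM over the 12 libraries. Of 27 tested genes of the NOTCH pathway 18 differed between numbers (44% of all genes), 13 being lower and 4 higher in number 3 than in number 2 (39.7%). NOTCH3 (−0.79, adjusted p = 3.89e-05 by edgeR) and NCSTN, a subunit of gamma-secretase (−0.77, 1.38e-05), were among the lower ones, as was NOTCH2. The ligand JAG1 rose in I vs C from 9.73 ± 3.50 to 29.5 ± 5.52 CPM (SD, n = 3; log2 fold change 1.60, adjusted p = 0.00724). It was the only 1 of the 27 called in the 5 comparisons of group means, which called 0 to 2.21% of all genes. Averaged over both doxycycline arms, 4 pathway genes were higher with IFNγ and 2 lower, beside 10.9% of all genes. In the averaged doxycycline test NOTCH3 (0.32, adjusted p = 0.0047) and the target HES1 (1.30, adjusted p = 0.0174) were higher, as NOTCH2 was, and LFNG, which modifies NOTCH receptors, was lower (−1.23, adjusted p = 0.0111). In all 6 were higher and 6 lower there, beside 29% of all genes.

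Among 11 tested partners of CD44, 6 differed between numbers, beside 44% of all genes. MSN, which encodes moesin and links CD44 to actin, had 255 to 906 counts in number 1, 1 to 4 in number 2 and 0 in all 4 libraries of number 3. HAS2, a hyaluronan synthase, had 5 to 100 counts in number 1, 10 to 140 in number 2 and 0 to 4 in number 3. MMP14, a protease that cleaves CD44, followed the order of VIM over the numbers, with 10.7 to 16.5 CPM in number 1, 24.4 to 28.0 in number 2 and 4.23 to 5.27 in number 3. In the averaged doxycycline test 4 partners were lower, as CD44 was, and 0 higher, beside 29% of all genes called: RDX (−0.29), HMMR (−0.48), EZR (−0.24) and MSN, with adjusted p from 0.0015 to 0.0174. In number 1 MSN had 48.8 CPM in C and 44.8 in I, against 12.2 in D and 13.5 in DI. Of 13 tested immediate early and AP-1 genes KLF6 rose in I vs C (0.57, adjusted p = 0.0203 by edgeR). It was the only 1 called there, beside 2.21% of all genes. Between numbers 9 of the 13 differed (44% of all genes). In number 3 against number 1, 6 were higher and 2 lower (24.3% of all genes). NR4A1 was among the higher ones (0.81, adjusted p = 0.000668) and FOS among the lower (−3.29, adjusted p = 0.00588).

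Over the 12 libraries, Pearson's r of log2 CPM was 0.84 between VIM and CD44, 0.84 between VIM and SNAI2, 0.69 between VIM and YAP1 and 0.63 between VIM and NOTCH2. VIM and WWTR1 had −0.90, YAP1 and WWTR1 −0.81, and VIM and TWIST1 −0.01. The pairs share libraries, and same-numbered libraries vary together, so these are descriptions. The tested genes most like VIM were RBMS2 (0.98), FBXL7 (0.98) and RINL (0.98), and those most like WWTR1 were IQGAP2 (0.99), EPHB6 (0.99) and EIF6 (0.99). For SNAI2 they were LUC7L3 (0.98), PLEKHM1P1 (0.96) and PDCD4-AS1 (0.95), for CD44 MCHR1 (0.97), SCN7A (0.97) and ZNF596 (0.96), and for NOTCH2 PPM1D (0.98), NFIA (0.97) and GJC1 (0.97). YAP1 was most like CADPS (0.94) and ARHGAP12 (0.93), PRRX1 like TEX9 (0.94), SLC19A3 (0.91) and SPON1 (0.90), TWIST1 like ZNF365 (0.92), TXNL4A (0.90) and UCK1 (0.89), and CCN1 like RRP1 (0.91), TELO2 (0.90) and FTCDNL1 (0.89).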

How the data were processed

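RNA of 12 SK-N-DZ libraries was sequenced by the submitters (Illumina, paired ends), and the raw counts per gene were deposited by the authors. The aligner, the counting tool and its use of strand are not given in the sources used here. Values are whole numbers for 43769 genes, all found in GENCODE release 29 (GRCh38), from which positions and lengths were taken, and 17165 genes had no count. The 3 tables of the authors' own DESeq2 comparisons hold fold changes and p-values and were not used, nor were 18 per-library columns whose names the labels do not explain.

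Counts were scaled by TMM and filtered with filterByExpr (minimum count 10), which left 15828 genes. They were tested in 1 model of 4 group means with the two-sided quasi-likelihood test of edgeR 4.0.16 (limma 3.58.1, R 4.3.3). Benjamini-Hochberg adjusted p-values over all tested genes under 0.05 are called. Standard errors are on the log2 scale, CPM uses the scaled library size, and TPM uses exon length. The code was tested on simulated data. Library totals ran from 16469832 to 21790869, and the limit of 3 counts covers counting error only, as no molecular identifiers are named.

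Replicate numbers come from the titles. After group means were removed, the 18 pairs with the same number correlated at 0.338 to 0.804 and the 36 others at −0.628 to 0.143, so the numbers pair the libraries, although the labels do not say why. A fit with the replicate block is given beside the results. Nothing says that replicates were separate cultures, and p-values then measure only the spread between these libraries. The alternatives were DESeq2 1.42.0, its median-of-ratios scaling, library size alone, no filter, a mean of at least 1 CPM, the compared groups alone, the replicate block, and each library left out. Tests of the replicate number and of both averaged effects were added after the data were seen.

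The 10 genes and the lists, written from general knowledge, were chosen with earlier results of these data known. All 10 are named in each comparison. Of the lists, called genes are named, at most 4 per direction and comparison by adjusted p, with TEAD1 to TEAD4, LATS1 and LATS2 whatever their values, and the 3 genes most like each tested gene by Pearson's r of log2 CPM (prior count 2). A few genes that these rules name are not reported here. Promoter letters are RefSeq's (GRCh38.p14).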

Additional observations from a re-analysis of the deposited data

How the results depend on the processing

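In D vs C, DI vs I, I vs C, DI vs D and the interaction 0 members were called by edgeR under every alternative run, DESeq2 and the replicate block included, so the changes of sign below are among values past no threshold. The cause of each was not tested. With the replicate block, WWTR1 became −0.42 in D vs C, −0.070 in DI vs I and 0.070 in DI vs D, and in the interaction PRRX1 became −0.27, SNAI2 0.23, WWTR1 0.35 and CCN1 −0.040. With library size alone VIM became 0.035 in D vs C, 0.059 in DI vs I and 0.014 in the averaged doxycycline effect. CD44 in DI vs D became 0.0044 with no filter, 0.011 with a mean of at least 1 CPM, 0.0036 by DESeq2 and 0.0049 with the compared groups alone. SNAI2 in the interaction became 0.013 with no filter and 0.0097 with a mean of at least 1 CPM, and WWTR1 became 0.0015 with no filter.

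Of the averaged effects, without the replicate block the count for doxycycline went from 3 to 0, with WWTR1 at 0.040, and YAP1 in the IFNγ effect became 0.022. With library size alone the count for IFNγ went from 0 to 2. PRRX1 has no value with a mean of at least 1 CPM, which it did not reach.

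Without 1 library at a time, the count of called members ran from 3 to 7 between numbers 1 and 2, from 1 to 3 for doxycycline and from 0 to 1 for IFNγ. Log2 fold changes that crossed 0 in these fits ran as follows. In D vs C they were −0.52 to 0.39 for VIM, −1.58 to 0.15 for CD44, −0.51 to 1.08 for SNAI2, −0.085 to 0.90 for YAP1 and −1.96 to 0.62 for WWTR1. In DI vs I they were −0.67 to 0.64 for VIM, −2.74 to 0.27 for PRRX1, −0.013 to 1.18 for SNAI2, −1.61 to 0.74 for WWTR1 and −1.49 to 0.30 for CCN1. In I vs C they were −0.39 to 0.73 for VIM, −0.25 to 1.07 for CD44, −0.89 to 0.29 for SNAI2, −0.84 to 0.48 for YAP1 and −0.82 to 0.45 for WWTR1. In DI vs D they were −0.34 to 0.77 for VIM, −1.36 to 0.92 for CD44, −0.79 to 0.80 for SNAI2, −0.24 to 0.52 for YAP1 and −1.77 to 1.87 for WWTR1. In the interaction they were −0.62 to 0.69 for VIM, −1.62 to 0.66 for CD44, −1.43 to 1.59 for PRRX1, −0.55 to 1.04 for SNAI2, −0.052 to 0.18 for TWIST1, −0.21 to 0.30 for NOTCH2, −0.21 to 1.10 for YAP1, −1.65 to 1.99 for WWTR1 and −1.09 to 0.70 for CCN1. Between numbers, CCN1 ran from −0.49 to 0.67 (3 vs 1) and TWIST1 from −0.17 to 0.011 (3 vs 2). In the averaged effects WWTR1 ran from −0.61 to 0.022 with doxycycline, and with IFNγ CD44 ran from −0.10 to 0.32, YAP1 from −0.14 to 0.078 and WWTR1 from −0.40 to 0.35. Low counts limit CCN2, at 0 to 12 per library, and the low values of CD44, PRRX1, WWTR1 and CCN1, at 0 to 4.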
